A study of Mus musculus with 6 samples.

Results

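The 50 genes described here are the Wnt ligands, their receptors and antagonists, and the proteins that carry the signal to the nucleus and feed back on it. They were taken by symbol from the array features that the platform annotation gives exactly 1 gene symbol. Of the 50 genes, 49 had at least 1 feature with a value, among 19087 genes with a symbol on the array. Tcf7 was not analysed here. The 49 genes rest on 77 features: 20 genes had more than 1 feature and 29 had 1.

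The study compared RNA of MMH cells that carried Prox1 (labelled MMH-Prox1) with RNA of MMH cells that carried pCDNA3.1, a plasmid for expression in mammalian cells. MMH stands for Met murine hepatocytes, known as immortalised liver precursor lines from mice with a transgene of the receptor Met, and the series title calls them hepatoblasts. Both arms share that background, and the titles of all 6 samples carry the tag ED14, that is embryonic day 14. The labels name no strain, clone or dose of Prox1. Prox1 is a homeobox transcription factor of the developing liver. Each of 6 arrays measured both RNAs in 2 colours, with Prox1 RNA in Cy5 on replicates 1 to 3 (the Prox1-Cy5 arrays) and in Cy3 on replicates 4 to 6. The values of replicates 4 to 6 were identical in all 41230 features with a value, although replicate 4 is labelled with another RNA isolation than the rest. They were therefore counted as 1 sample, the Prox1-Cy3 profile, and 4 distinct profiles remained. The design text speaks of 2 samples, so the arrays may repeat the same RNA: every p-value below reflects how arrays scatter, and nothing shows separate cultures. The number of arrays limits the precision.

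Wnt proteins are secreted lipid-modified ligands that bind Frizzled receptors together with the co-receptors Lrp5 or Lrp6. Without a ligand, a complex of Axin, Apc and the kinase Gsk3b marks β-catenin for destruction. With a ligand, Dishevelled proteins (Dvl) hold that complex back, and β-catenin enters the nucleus and binds transcription factors of the TCF/LEF family. In the liver this pathway is known for hepatoblast growth and for the genes that hepatocytes around the central vein express.

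Values are scores. A score is a signed, log-like ratio of both RNAs scaled to a standard deviation (SD) of 1 over the features of each array, and it is neither a fold change nor an expression level. Scores above 0 likely mean more RNA with Prox1. The labels do not state this direction, and every rise would be a fall if it ran the other way. It rests on a Prox1 feature at 5.44, 5.22 and 5.17 on the Prox1-Cy5 arrays and 6.6 in the Prox1-Cy3 profile. That feature ranked 3 from the top by its mean over the 4 profiles, whereas the other features of Prox1 stood at 0.41 ± 0.16 and 0.037 ± 0.12 (SD, n = 3) on the Prox1-Cy5 arrays and at −0.29 and −0.38 in the Prox1-Cy3 profile. The effect of Prox1 on a gene was a weighted mean score from a limma model with the dye orientation as a random block. The model was fitted over all 28617 features tested. In it the Prox1-Cy3 profile weighs more than any single Prox1-Cy5 array. The effect is therefore not the plain mean of the 4 profiles. It is given in SD units with its standard error (SE) over 4 profiles and a Benjamini-Hochberg adjusted p, which passed below 0.05. The orientations differed far more than the arrays of 1 orientation did. Over all features tested, the SD of their difference was 0.984, against a median SD of 0.139 among the 3 Prox1-Cy5 arrays. In these bulk samples, fewer cells of a type and less RNA per cell cannot be told apart.

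Of the 49 genes, 2 rose with Prox1, 1 fell and 46 did not pass. That is 6.12% of them, against 8.41% of all features tested (3.38% rose and 5.03% fell) and 9.99% of all genes with a symbol. The ligand gene Wnt7a rose by 1.78 ± 0.32 SD units and the scaffold gene Axin1 by 1.02 ± 0.20, and the transcription factor gene Tcf7l2 fell, with an effect of −1.76 ± 0.36. The median effect over the 49 genes was 0.042, beside 0.037 over all features tested and 0.032 over all genes with a symbol. The median size of the effect regardless of sign was 0.25, beside 0.25 over all features tested and 0.29 over all genes with a symbol. An unadjusted p under 0.05 was found for 6 of the 49 genes (12.2%) and for 20.3% of all features tested. Without Prox1-Cy5 replicate 1, 2 or 3 the model called 1, 1 and 0 of the 49, against 4.31%, 4.85% and 4.31% of all features. Without the Prox1-Cy3 profile only 1 orientation remained, and the fit had no block. That fit called 27 of the 49 (55.1%), against 58.6% of all features. Every result below without that profile comes from this fit, which changes the error model as well as the data.

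The bases before the starts of the called genes are shown because TCF/LEF proteins act through short sites in DNA, and Tcf7l2 is itself one of them. RefSeq sequence (build GRCm38.p6) was at hand for Wnt7a and Tcf7l2. Each line holds the 250 bases before a gene start on the gene's strand. The TCF/LEF core was searched on both strands in its variants CTTTGAA or CTTTGAT, and likewise the variants CTTTGTA or CTTTGTT, and matches are in capitals. The windows are chr6:91411354-91411603 (minus strand) for Wnt7a, and chr19:55741560-55741809 and chr19:55895071-55895320 (plus strand) for 2 starts of Tcf7l2.
Wnt7a: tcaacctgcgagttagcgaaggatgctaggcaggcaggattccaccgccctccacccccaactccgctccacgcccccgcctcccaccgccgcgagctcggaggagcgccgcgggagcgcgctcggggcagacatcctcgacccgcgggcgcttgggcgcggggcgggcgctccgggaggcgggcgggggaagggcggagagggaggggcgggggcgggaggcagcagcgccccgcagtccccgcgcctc
Tcf7l2, start 1: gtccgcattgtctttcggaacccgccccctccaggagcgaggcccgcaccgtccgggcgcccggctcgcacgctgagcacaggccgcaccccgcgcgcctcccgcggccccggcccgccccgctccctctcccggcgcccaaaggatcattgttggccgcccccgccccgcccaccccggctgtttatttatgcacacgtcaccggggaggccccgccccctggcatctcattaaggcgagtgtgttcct
Tcf7l2, start 2: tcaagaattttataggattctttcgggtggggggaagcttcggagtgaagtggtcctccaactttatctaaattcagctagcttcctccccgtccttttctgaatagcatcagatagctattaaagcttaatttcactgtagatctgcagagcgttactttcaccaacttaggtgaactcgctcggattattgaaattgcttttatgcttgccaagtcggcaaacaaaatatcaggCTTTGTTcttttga
The only match in these 3 windows began 14 bases before the second Tcf7l2 start. At least 1 match was present in 14.8% of all 32851 windows of this length in the table and in 6 of 42 windows (14.3%) that belong to 34 of the 50 genes. The match is a description of these letters and not a binding site.

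**Figure D1:**
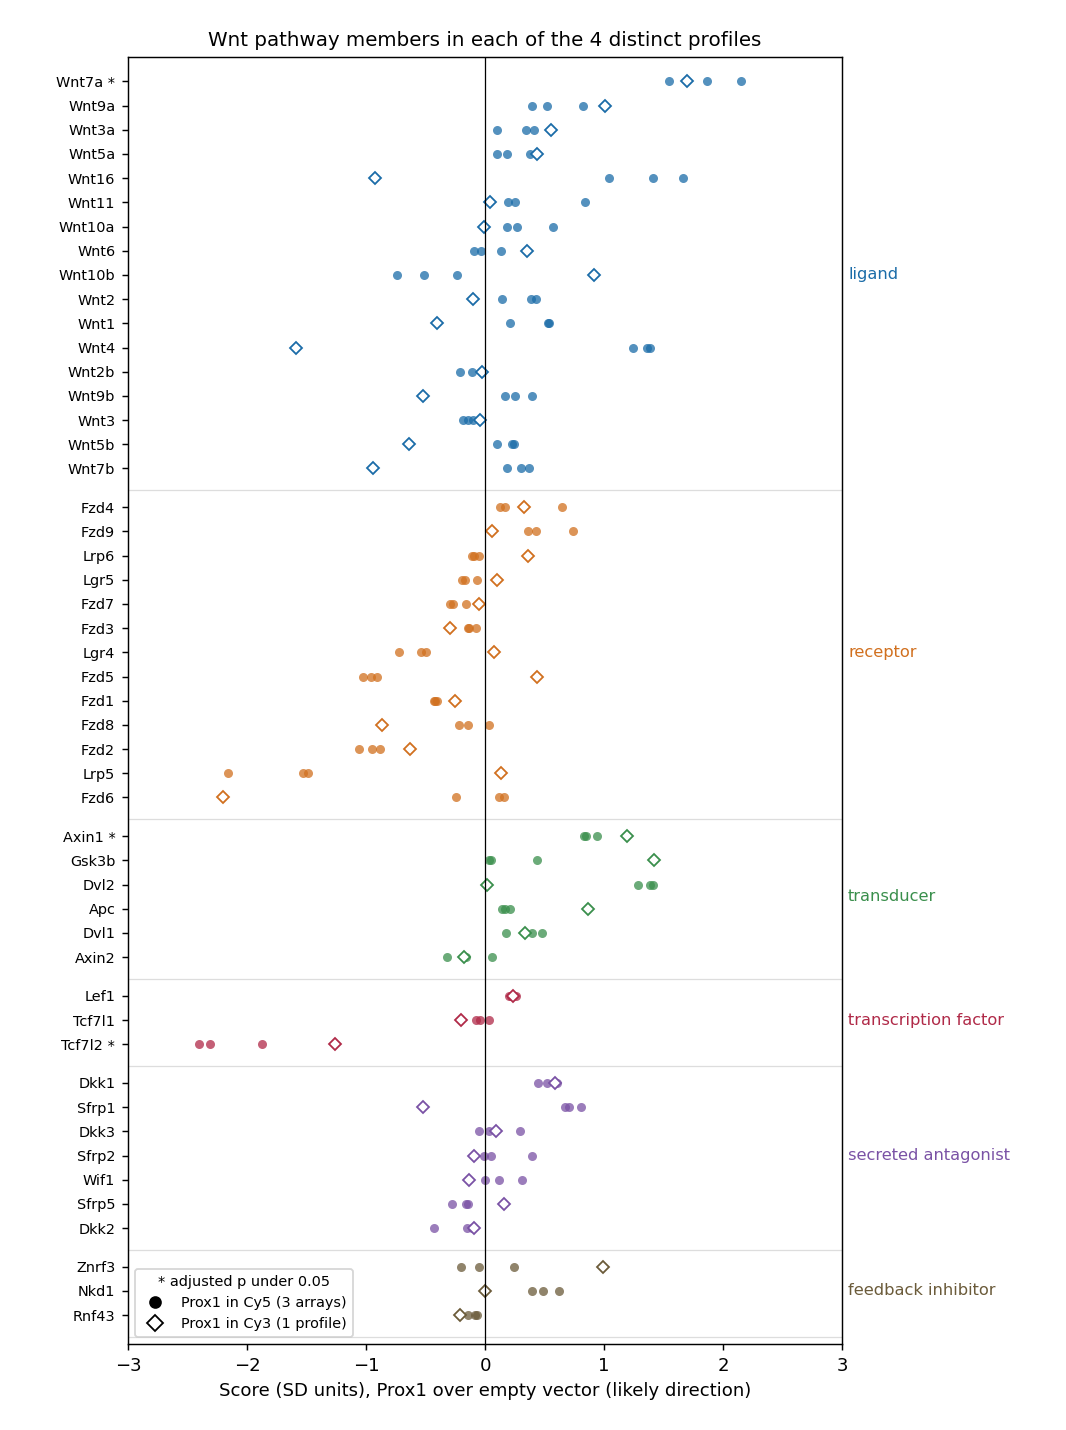
Scores in SD units (horizontal axis) of the 49 measured genes, ordered by role and by effect. Filled circles are the 3 Prox1-Cy5 arrays, open diamonds the Prox1-Cy3 profile, and an asterisk marks an adjusted p under 0.05. Wnt7a and Axin1 lie above 0 and Tcf7l2 below 0 in all 4 profiles, while Wnt4, Wnt16 and Lrp5 lie on opposite sides of 0 in the 2 orientations.

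Among the ligands, 1 of 17 rose and 0 fell. Wnt7a, a Wnt ligand best known from epithelia and the nervous system, had scores of 1.55, 2.15 and 1.86 on the Prox1-Cy5 arrays and 1.70 in the Prox1-Cy3 profile. All 4 profiles were high, and the Prox1-Cy3 profile lay within the range of the other 3. The effect of 1.78 ± 0.32 (95% interval 1.01 to 2.55; limma adjusted p = 0.024) ranked 210 from the top of 19087 genes. Wnt7a has a single feature, so no other feature can be set beside it. Without Prox1-Cy5 replicate 3 the gene did not pass, at an effect of 1.78 and a limma adjusted p of 0.073.

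Wnt9a came next among the ligands, with scores of 0.52, 0.39 and 0.83 on the Prox1-Cy5 arrays and 1.01 in the Prox1-Cy3 profile and an effect of 0.78 ± 0.28 that did not pass (limma adjusted p = 0.18). Its gene means were above 0 in all 4 profiles and highest in the Prox1-Cy3 profile, but its 2 features differed. One stood at 0.14, −0.23 and 0.49 on the Prox1-Cy5 arrays and 1.40 in the Prox1-Cy3 profile. The other stood at 0.89, 1.01 and 1.16 on the Prox1-Cy5 arrays and was lowest in the Prox1-Cy3 profile, at 0.62. Wnt9a is known in the liver as a ligand of sinusoidal and immune cells. Wnt3a, a ligand widely used to activate β-catenin, stood at 0.34, 0.41 and 0.096 on the Prox1-Cy5 arrays and 0.56 in the Prox1-Cy3 profile, with an effect of 0.41 ± 0.24 (limma adjusted p = 0.45). Wnt5a, best known for β-catenin-independent signalling, stood at 0.10, 0.37 and 0.19 on the Prox1-Cy5 arrays and 0.44 in the Prox1-Cy3 profile. Wnt3a and Wnt5a were thus above 0 in all 4 profiles without passing. The effects of the 17 ligands ranged from −0.28 for Wnt7b to 1.78 for Wnt7a, with a median of 0.16.

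Many ligands had opposite signs in the 2 orientations. In 9 of 17 ligands (52.9%), the 3 Prox1-Cy5 arrays lay on one side of 0 and the Prox1-Cy3 profile on the other, against 34.0% of all features tested. In 8 of these 9 the Prox1-Cy5 arrays were the higher ones, and Wnt10b was the exception. The same lean was present in 62.5% of all 9739 features with opposite signs. The genes named next were chosen after their values were seen. Wnt4, a ligand of kidney and gonad development, stood at 1.24, 1.36 and 1.38 on the Prox1-Cy5 arrays and −1.59 in the Prox1-Cy3 profile. Wnt16, a ligand known from bone and blood stem cell development, stood at 1.41, 1.04 and 1.67 on the Prox1-Cy5 arrays and −0.93 in the Prox1-Cy3 profile. In both genes every array with Prox1 in Cy5 was above 1 and the other orientation was below −0.9. Their effects were −0.023 ± 0.62 and 0.31 ± 0.56. The mean of the Prox1-Cy5 arrays minus the Prox1-Cy3 profile was 2.92 for Wnt4 and 2.3 for Wnt16. With 1 distinct profile in the other orientation, only the size of this difference is given. Dye and any other difference between the orientations cannot be told apart. The liver ligands Wnt2 and Wnt9b, which endothelial cells around the central vein are known to make, had effects of 0.12 ± 0.24 and −0.096 ± 0.26 and opposite signs in the orientations.

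**Figure D2:**
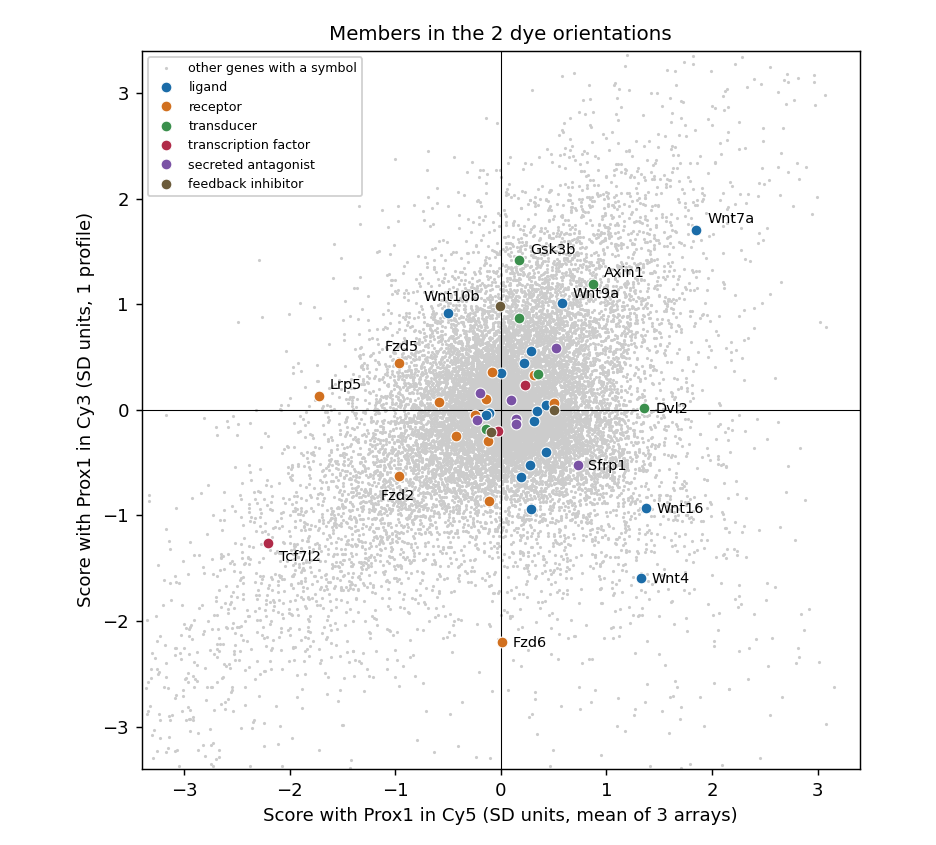
Mean score of the 3 Prox1-Cy5 arrays (horizontal axis, SD units) against the score of the Prox1-Cy3 profile (vertical axis, SD units) for each measured gene, coloured by role, over all other genes with a symbol in grey; grey genes beyond the axes are not drawn. Wnt7a and Axin1 lie in the upper right and Tcf7l2 in the lower left, whereas Wnt4 and Wnt16 lie at the lower right and Lrp5 and Fzd5 at the upper left.

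Of the 13 receptor genes 0 rose and 0 fell, and Fzd2 alone had an unadjusted p under 0.05. Their median effect was −0.28, beside 0.037 over all features tested. As the mean of the Prox1-Cy5 arrays, 3 of 13 (23.1%) were above 0, against 56.5% of all features tested. In the Prox1-Cy3 profile 7 of 13 (53.8%) were above 0, against 47.0% of all features tested. Fzd2, a Frizzled receptor that also binds Wnt5a, stood at −1.06, −0.88 and −0.95 on the Prox1-Cy5 arrays and −0.63 in the Prox1-Cy3 profile. All 4 of its profiles were below −0.6. The effect of −0.81 ± 0.21 (95% interval −1.32 to −0.30) had the lowest adjusted p among the genes that did not pass (0.075, limma). Its 2 features had effects of −0.88 ± 0.27 and −0.74 ± 0.22. Fzd1 stood at −0.42, −0.43 and −0.41 on the Prox1-Cy5 arrays and −0.25 in the Prox1-Cy3 profile, also below 0 in every profile, with an effect of −0.34 ± 0.19 (limma adjusted p = 0.42).

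The effects of Fzd6 and Lrp5, unlike that of Fzd2, came from 1 orientation. Fzd6, a receptor of planar cell polarity, had the lowest effect of the receptors at −1.01 ± 0.52 (limma adjusted p = 0.37), from scores of −0.24, 0.16 and 0.12 on the Prox1-Cy5 arrays and −2.20 in the Prox1-Cy3 profile. Its Prox1-Cy5 arrays lay on both sides of 0, so the effect came from the Prox1-Cy3 profile. Without that profile the effect was 0.011. The co-receptor gene Lrp5 showed the reverse, with −2.16, −1.49 and −1.53 on the Prox1-Cy5 arrays and 0.13 in the Prox1-Cy3 profile and an effect of −0.86 ± 0.52 (limma adjusted p = 0.48). Without the Prox1-Cy3 profile the Lrp5 effect was −1.72 and passed (limma adjusted p = 3.1e-04). Fzd5 stood at −1.02, −0.96 and −0.91 on the Prox1-Cy5 arrays and 0.44 in the Prox1-Cy3 profile, an opposite sign in each orientation. Fzd8 stood at 0.033, −0.22 and −0.15 on the Prox1-Cy5 arrays and −0.86 in the Prox1-Cy3 profile, and 1 of its 2 features carried that difference, with effects of −0.92 ± 0.46 and −0.00099 ± 0.21. Without the Prox1-Cy3 profile the Fzd8 effect was −0.11, against −0.46 ± 0.26 with it.

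Lrp6, the other co-receptor, had an effect of 0.12 ± 0.21 from 2 features that disagreed within each orientation. One stood at 0.43 ± 0.10 (SD, n = 3) on the Prox1-Cy5 arrays and −0.29 in the Prox1-Cy3 profile, and the other at −0.61 ± 0.087 (SD, n = 3) on the Prox1-Cy5 arrays and 1.01 in the Prox1-Cy3 profile. Fzd7 also had features of opposite sign, at −0.94 ± 0.093 (SD, n = 3) on the Prox1-Cy5 arrays and −0.35 in the Prox1-Cy3 profile and at 0.46 ± 0.064 (SD, n = 3) on the Prox1-Cy5 arrays and 0.25 in the Prox1-Cy3 profile, and neither passed (limma adjusted p = 0.20 and 0.48). With a dye term they passed in opposite directions, and Fzd7 was the only one of the 49 genes to do so. Lgr4 and Lgr5 encode receptors of the R-spondins, which strengthen Wnt signals, and Lgr5 is itself a Wnt target and stem cell marker. Lgr5 stood at −0.19, −0.071 and −0.17 on the Prox1-Cy5 arrays and 0.099 in the Prox1-Cy3 profile, close to 0 throughout, with an effect of −0.031 ± 0.20 and a 95% interval of −0.51 to 0.45. Lgr4 stood at −0.73, −0.54 and −0.50 on the Prox1-Cy5 arrays and 0.074 in the Prox1-Cy3 profile, with an effect of −0.28 ± 0.25 (limma adjusted p = 0.71). Of the receptors not described here, Fzd3 was below and Fzd4 and Fzd9 were above 0 in every profile, with effects of −0.20, 0.32 and 0.30 that did not pass.

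The 6 cytoplasmic genes had a median effect of 0.62, the highest of the 6 roles, and of them only Axin1 passed. Axin1, the scaffold of the β-catenin destruction complex, stood at 0.94, 0.83 and 0.85 on the Prox1-Cy5 arrays and 1.19 in the Prox1-Cy3 profile. All 4 profiles were high and the arrays of 1 orientation lay close together, at 0.87 ± 0.056 (SD, n = 3). The effect was 1.02 ± 0.20 (95% interval 0.54 to 1.51; limma adjusted p = 0.032), rank 1087 from the top of 19087 genes, from a single feature. The gene did not pass when any of Prox1-Cy5 replicates 1, 2 or 3 was left out (limma adjusted p = 0.084, 0.075 and 0.081), while its effect stayed between 1.01 and 1.03.

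Gsk3b and Apc, further parts of the destruction complex, were above 0 in every profile without passing. Gsk3b, the kinase of the complex, stood at 0.035, 0.053 and 0.44 on the Prox1-Cy5 arrays and 1.42 in the Prox1-Cy3 profile, with an effect of 0.75 ± 0.37 (limma adjusted p = 0.34). The mean hides features that differ: one stood at −0.86, −0.89 and −0.16 on the Prox1-Cy5 arrays and 2.33 in the Prox1-Cy3 profile, and the other at 0.93, 0.99 and 1.04 on the Prox1-Cy5 arrays and 0.52 in the Prox1-Cy3 profile. Apc, the second scaffold, stood at 0.21, 0.14 and 0.17 on the Prox1-Cy5 arrays and 0.86 in the Prox1-Cy3 profile, with an effect of 0.49 ± 0.23 (limma adjusted p = 0.32). Its 6 features had effects from −0.10 ± 0.24 to 0.97 ± 0.38, and 0 of them passed singly. Without the Prox1-Cy3 profile the effects of Gsk3b and Apc were 0.18 and 0.17. Among the Dishevelled genes, Dvl2 stood at 1.41, 1.38 and 1.28 on the Prox1-Cy5 arrays and 0.017 in the Prox1-Cy3 profile, high in 1 orientation and at 0.017 in the other (effect 0.74 ± 0.33, limma adjusted p = 0.29). Without the Prox1-Cy3 profile its effect was 1.36 and passed (limma adjusted p = 6.4e-05). Dvl1 stood at 0.18, 0.48 and 0.40 on the Prox1-Cy5 arrays and 0.34 in the Prox1-Cy3 profile, with an effect of 0.35 ± 0.23 (limma adjusted p = 0.53).

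Axin2, a destruction complex scaffold that is also the most widely used readout of β-catenin activity, did not pass. It stood at −0.32, 0.058 and −0.16 on the Prox1-Cy5 arrays and −0.18 in the Prox1-Cy3 profile, with 1 of the 4 profiles above 0. The effect was −0.16 ± 0.24 (limma adjusted p = 0.91), and its 95% interval of −0.75 to 0.44 leaves room for a moderate change in either direction. The genes Axin1 and Axin2 were not tested against each other.

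Of the 3 transcription factor genes measured, 1 fell and 0 rose. Tcf7l2, the TCF family member of intestine, liver and pancreas, stood at −1.88, −2.31 and −2.41 on the Prox1-Cy5 arrays and −1.26 in the Prox1-Cy3 profile. All 4 profiles were below −1.2, and the Prox1-Cy5 arrays were lower than the Prox1-Cy3 profile. The effect was −1.76 ± 0.36 (95% interval −2.63 to −0.90; limma adjusted p = 0.035), rank 634 from the bottom of 19087 genes.

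Tcf7l2 had 4 features, and all 4 were below 0 in every profile. The lowest stood at −3.0, −3.15 and −3.17 on the Prox1-Cy5 arrays and −1.64 in the Prox1-Cy3 profile and the second at −1.99, −2.26 and −2.04 on the Prox1-Cy5 arrays and −1.05 in the Prox1-Cy3 profile. These passed singly, as 7.66% of all 41230 single features did, with effects of −2.43 ± 0.37 and −1.61 ± 0.32 (limma adjusted p = 0.015 and 0.034). The other features had effects of −1.61 ± 0.72 and −1.40 ± 0.37 and did not pass (limma adjusted p = 0.30 and 0.081). In the third feature, Prox1-Cy5 replicate 1 stood at −0.67, apart from the −1.93 and −2.19 of the other arrays. The gene did not pass when any of Prox1-Cy5 replicates 1, 2 or 3 was left out (limma adjusted p = 0.052, 0.083 and 0.076), with effects between −1.84 and −1.70.

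Lef1, a TCF/LEF factor that is often itself a Wnt target, had gene means of 0.22, 0.20 and 0.26 on the Prox1-Cy5 arrays and 0.23 in the Prox1-Cy3 profile, which lie close together. This closeness came from averaging features that disagreed. One Lef1 feature stood at 1.15, 1.14 and 1.22 on the Prox1-Cy5 arrays and −0.47 in the Prox1-Cy3 profile, another at −0.48, −0.34 and −0.29 on the Prox1-Cy5 arrays and 1.03 in the Prox1-Cy3 profile, and the last at −0.014, −0.18 and −0.14 on the Prox1-Cy5 arrays and 0.14 in the Prox1-Cy3 profile. All 3 features thus had opposite signs in the 2 orientations, and the mean effect of 0.23 ± 0.18 did not pass (limma adjusted p = 0.66). Tcf7l1, the family member best known as a repressor in stem cells, had an effect of −0.11 ± 0.19 (limma adjusted p = 0.93).

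**Figure D3:**
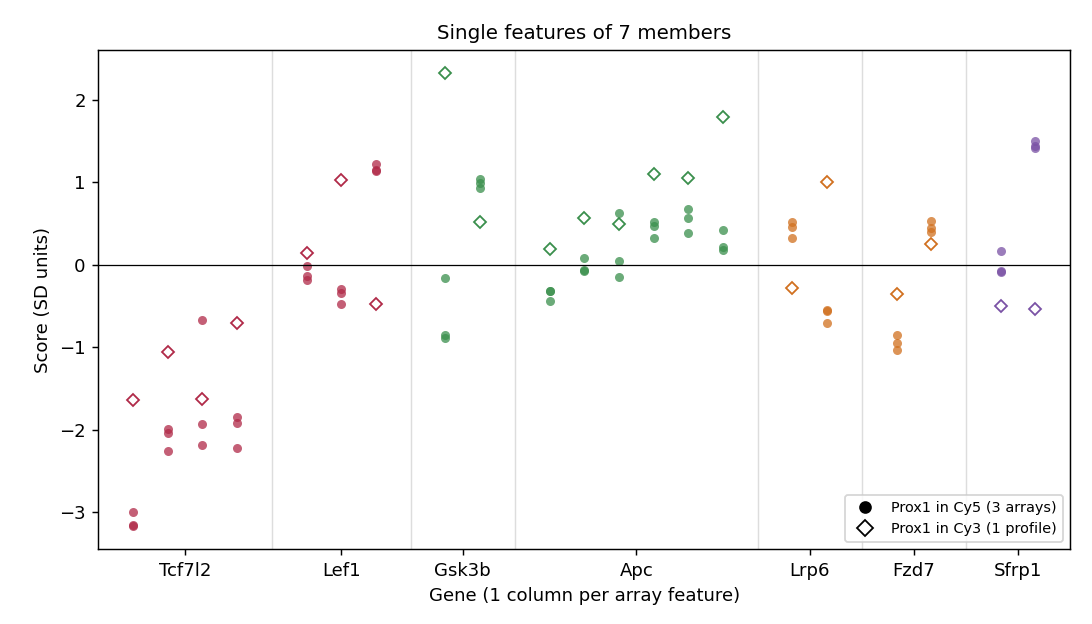
Scores in SD units (vertical axis) of every array feature of 7 genes, 1 column per feature; filled circles are the 3 Prox1-Cy5 arrays and open diamonds the Prox1-Cy3 profile. The 4 features of Tcf7l2 lie below 0 throughout, whereas features of Lef1, Gsk3b, Apc, Lrp6, Fzd7 and Sfrp1 lie on both sides of 0.

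Of the 7 secreted antagonists 0 rose and 0 fell, and Dkk1 alone had an unadjusted p under 0.05. Dkk1, which blocks the Lrp co-receptors and is a Wnt target, came closest, at 0.60, 0.52 and 0.44 on the Prox1-Cy5 arrays and 0.59 in the Prox1-Cy3 profile. Its 4 profiles were all above 0 and the orientations overlapped, and the effect was 0.55 ± 0.20 (95% interval 0.078 to 1.03; limma adjusted p = 0.17). Its 2 features had effects of 0.89 ± 0.25 and 0.22 ± 0.22. Sfrp1, a decoy that binds Wnt proteins, had opposite signs in the 2 orientations, at 0.80, 0.71 and 0.67 on the Prox1-Cy5 arrays and −0.52 in the Prox1-Cy3 profile, with an effect of 0.15 ± 0.32. Those are means of 2 features. One stood at 1.45 ± 0.045 (SD, n = 3) on the Prox1-Cy5 arrays and −0.54 in the Prox1-Cy3 profile. The other stood at 0.0015 ± 0.14 (SD, n = 3) and −0.50. Their effects were 0.53 ± 0.45 and −0.23 ± 0.26. The other 5 antagonists (Dkk2, Dkk3, Sfrp2, Sfrp5 and Wif1) had effects between −0.17 and 0.094, all with a limma adjusted p of at least 0.88.

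The feedback inhibitors did not pass in either direction, and 0 of 3 had an unadjusted p under 0.05. Nkd1, an intracellular Wnt target that binds Dishevelled, stood at 0.39, 0.63 and 0.49 on the Prox1-Cy5 arrays and 0 in the Prox1-Cy3 profile. It was above 0 on each array of 1 orientation and listed at exactly 0 in the other, with an effect of 0.27 ± 0.23 (limma adjusted p = 0.70). Without the Prox1-Cy3 profile the effect was 0.50 and passed (limma adjusted p = 0.0032). Rnf43 and Znrf3 are ubiquitin ligases that remove Frizzled receptors from the cell surface. Rnf43 stood at −0.087, −0.14 and −0.064 on the Prox1-Cy5 arrays and −0.21 in the Prox1-Cy3 profile, below 0 in every profile, with an effect of −0.15 ± 0.19 (limma adjusted p = 0.85). Znrf3 stood at 0.25, −0.20 and −0.054 on the Prox1-Cy5 arrays and 0.99 in the Prox1-Cy3 profile, with an effect of 0.46 ± 0.33 (limma adjusted p = 0.60) that came from 1 orientation: without the Prox1-Cy3 profile it was −0.0026. Of the 6 genes listed as feedback targets (Axin2, Nkd1, Lgr5, Rnf43, Znrf3 and Lef1), 0 rose and 0 fell, and 0 had an unadjusted p under 0.05. That list leaves out the Wnt target Dkk1, which did.

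A model with a dye term in place of the random block gave 12 rises and 9 falls among the 49 genes. That is 42.9% of them, against 45.0% of all features tested and 50.1% of all genes with a symbol. Its error is estimated on the Prox1-Cy5 arrays and leaves out the difference between the orientations. By role it called 4 ligands higher and 1 lower, 0 receptors higher and 7 lower, and 5 of the 6 cytoplasmic genes higher and 0 lower. The share of all features called was 25.3% higher and 19.7% lower. With the orientations as 2 replicates, 0 of the 49 genes and 0 of all features passed in limma, and 5 of the 49 had an unadjusted p under 0.05. Of the other genes given profile by profile, Wnt3a, Wnt9a, Fzd2, Dvl1, Lef1 and Dkk1 passed without the Prox1-Cy3 profile, with effects of 0.28, 0.58, −0.97, 0.35, 0.23 and 0.52. The same sign in all 4 profiles was found for 23 of the 49 genes (46.9%), for 46.4% of all genes with a symbol and for 41.8% of all features tested.

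Around these genes, 74 further genes of the pathway were taken as a list, and 73 of them were measured. Of these 1 rose and 5 fell (8.22% in all, against 8.41% of all features tested), with a median effect of −0.013. Every feature tested singly gave 3 rises and 8 falls among the 73, while 2763 of all 28617 features tested were called in that way. The counts were 2, 4 and 3 without Prox1-Cy5 replicate 1, 2 or 3, against 4.31%, 4.85% and 4.31% of all features. Without the Prox1-Cy3 profile 47 of the 73 were called, against 58.6% of all features. Ctnnb1, which encodes β-catenin itself, fell. Its gene means were −1.64, −1.46 and −1.80 on the Prox1-Cy5 arrays and −2.53 in the Prox1-Cy3 profile, all below −1.4. The effect was −2.05 ± 0.29 (95% interval −2.76 to −1.33; limma adjusted p = 0.013). The 3 features of Ctnnb1 had effects of −3.10, −2.69 and −0.34, of which the last did not pass (limma adjusted p = 0.0051, 0.0088 and 0.77). That last feature stood at 0.15, 0.34 and 0.27 on the Prox1-Cy5 arrays and −1.04 in the Prox1-Cy3 profile, opposite signs in the orientations. Porcn, the enzyme that attaches the lipid to Wnt proteins and so allows their secretion, also fell. It stood at −2.28, −2.23 and −2.63 on the Prox1-Cy5 arrays and −1.46 in the Prox1-Cy3 profile, low in all 4 profiles, with an effect of −1.95 ± 0.32 (limma adjusted p = 0.019). Without Prox1-Cy5 replicate 1 Porcn did not pass (limma adjusted p = 0.055). Wls, which carries Wnt proteins to the cell surface, had an effect of −0.21 ± 0.21 (limma adjusted p = 0.77).

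Rhoa, a small GTPase of the β-catenin-independent branch that shapes the cytoskeleton, fell as well. It stood at −1.30, −0.96 and −1.28 on the Prox1-Cy5 arrays and −2.28 in the Prox1-Cy3 profile, lowest in the Prox1-Cy3 profile, with an effect of −1.69 ± 0.33 (limma adjusted p = 0.032). Its 2 features had effects of −1.99 and −1.39, of which the last did not pass singly (limma adjusted p = 0.025 and 0.062). Without Prox1-Cy5 replicate 1 or 3 Rhoa did not pass (limma adjusted p = 0.081 and 0.088).

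The 16 target genes on that list went both ways, with 1 rise, 2 falls and a median of 0.10. Over all features tested, 3.38% rose and 5.03% fell, with a median of 0.037. This group was formed after its values were seen. Myc, a growth-promoting transcription factor that Wnt and many other signals control, rose. It stood at 2.68, 2.68 and 2.76 on the Prox1-Cy5 arrays and 3.18 in the Prox1-Cy3 profile, with an effect of 2.93 ± 0.21 (limma adjusted p = 0.0013), rank 28 from the top of 19087 genes. Its 3 features had effects of 2.63, 2.63 and 3.53, and all passed. Glul encodes glutamine synthetase, the standard β-catenin target of hepatocytes around the central vein. It fell, from scores of −1.89, −1.90 and −1.87 on the Prox1-Cy5 arrays and −0.84 in the Prox1-Cy3 profile, with an effect of −1.40 ± 0.28 (limma adjusted p = 0.034). Its 3 features had effects of −2.04, −1.75 and −0.41, and only the second passed singly. Cd44, an adhesion receptor, fell by 1.47 ± 0.30 (limma adjusted p = 0.037), from scores of −1.65, −2.0 and −1.97 on the Prox1-Cy5 arrays and −1.0 in the Prox1-Cy3 profile. Its 3 features had effects of −1.80, −1.34 and −1.26, of which the last did not pass singly (limma adjusted p = 0.013, 0.022 and 0.29). Glul and Cd44 did not pass when any of Prox1-Cy5 replicates 1, 2 or 3 was left out (highest limma adjusted p = 0.092 and 0.092). Ccnd1, which encodes cyclin D1, stood at 1.09, 1.55 and 1.38 on the Prox1-Cy5 arrays and 0.86 in the Prox1-Cy3 profile and did not pass (effect 1.12 ± 0.29, limma adjusted p = 0.074). Oat, Lect2, Rhbg and Cyp2e1, further genes of hepatocytes around the central vein, had effects of −0.79, −0.40, 0.20 and 0.13, and none passed in limma (lowest adjusted p = 0.079).

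**Figure D4:**
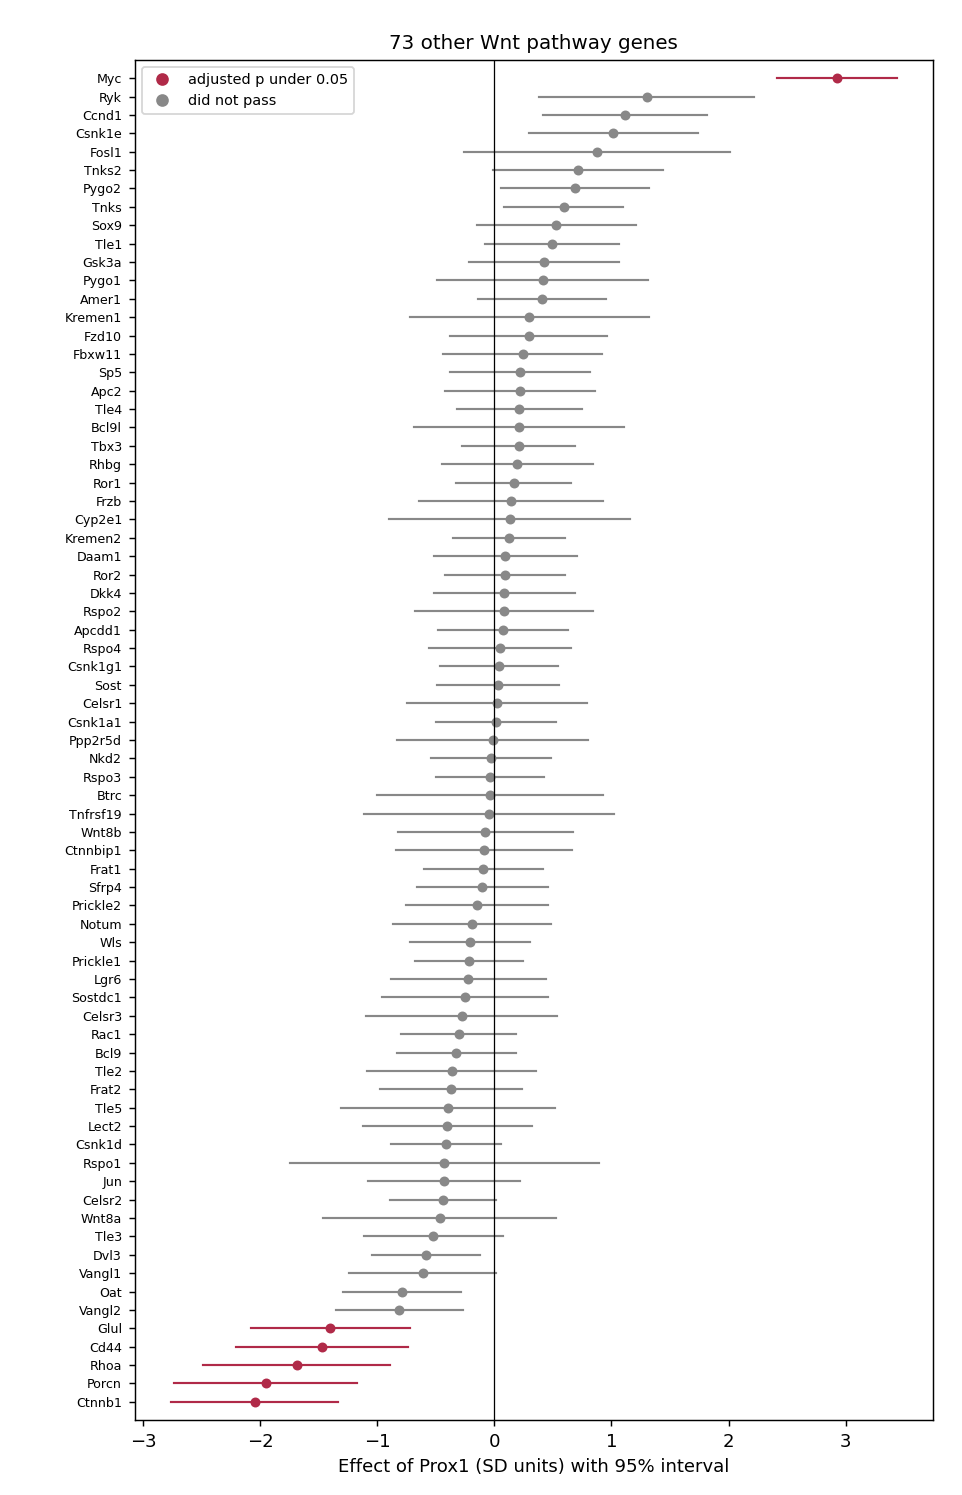
Effects of Prox1 in SD units (horizontal axis) with 95% intervals for 73 further genes of the Wnt pathway, ordered by effect. Myc stands apart at the top at 2.93, and Ctnnb1, Porcn, Rhoa, Cd44 and Glul form the low end between −2.05 and −1.40.

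Marker genes of several cell types were set beside these values. Ratios show differences between the arms and not whether a marker is expressed, so the labelled cell type could not be checked by level. Among all features tested 3.38% rose and 5.03% fell, which is the background for the counts that follow. Of 7 measured markers of hepatocytes and hepatoblasts, 3 fell (Alb, Trf and Hnf4a) and 0 rose, with effects from −5.71 to 0.42. Of 4 cholangiocyte markers 1 fell, Krt19, and 0 rose. Of 5 endothelial, 3 macrophage and 5 stellate cell and fibroblast markers, 0 rose and 0 fell, with medians of 0.066, 0.11 and −0.24. Their part in the values of the Wnt genes was not tested.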

How the data were processed

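RNA of MMH-Prox1 and MMH-pCDNA3.1 cells was compared on 6 arrays with 2 colours. The labels' protocols give RNeasy isolation (Trizol for replicate 4), DNase, and probe synthesis through a PCR halted ahead of saturation, which can distort ratios. The deposited values are used as a score, a signed log-like ratio whose SD is 1 in every column. How the scanner output became these scores, and the log base, is not given in the sources used here. Signal over background is likewise unknown. Median scores of the 4 distinct profiles were 0.060, 0.055, 0.058 and −0.020, and nothing was rescaled.

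All 6 columns had values for 41230 of 44290 features, and the other 3060 had none. Symbols came from a platform annotation whose gene identifiers were updated through RefSeq. Exactly 1 symbol belonged to 31700 valued features, several to 47, and none to 9483. Averaging features of 1 symbol per profile, with all others kept apart, left 28617 for testing. Opposite orientations correlated positively over features (r = 0.397 to 0.444, where features are not independent), so their ratios already ran the same way.

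The fit used limma 3.58.1 in R 4.3.3 with an intercept alone, 3 residual degrees of freedom, and dye orientation entered as a random block whose correlation duplicateCorrelation put at 0.793. Adjusted p-values are Benjamini-Hochberg over every feature tested, with a threshold of 0.05. The script was tested on simulated data whose changes were larger than any effect among the Wnt genes of the rule, so recovery of effects of this size was not tested. Alternatives were a dye term, neither term nor block, orientation means as 2 replicates, and 1 orientation alone. Others were median centring, quantile normalization, single features, and omission of each profile. With a Prox1-Cy5 array left out, the correlation was held at its full value. Omission of the Prox1-Cy3 profile was the fit of 1 orientation alone, without a block. Genes given profile by profile are those that passed, the 15 largest effects, and the feedback targets; of the further pathway genes, those that passed and Ctnnb1. Genes named beyond this rule (Wnt2, Wnt4, Wnt5a, Wnt9b, Wnt16, the remaining receptors, Sfrp1, Tcf7l1, Wls, Ccnd1, Oat, Lect2, Rhbg, Cyp2e1, Vangl2, Csnk1e and Ryk) were chosen after their values were seen. The design foresaw log ratios; the values proved to be scores, so no fold change is given. Members, lists and roles were chosen with earlier results of these data known. Tcf7 and Ephb2 were not analysed here.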

Additional observations from a re-analysis of the deposited data

How the results depend on the processing

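The counts of called genes depended on how the dye orientation was modelled. Against 3 of the 49 genes, 6 of the 73 further pathway genes and 2406 of all features, a dye term called 21, 32 and 12879, and neither term nor block called 7, 19 and 6869. The Prox1-Cy5 arrays alone called 27, 47 and 16781. Orientation means as 2 replicates called 0, 0 and 0 in limma, with 5, 9 and 3975 at an unadjusted p under 0.05. Single features called 3, 11 and 2763. Leaving out 1 profile at a time gave 0 to 27 of the 49 genes, 2 to 47 pathway genes and 1232 to 16781 features. Median centring and quantile normalization left 3 and 6 called, with 2317 and 2382 of all features. With orientation means the limma adjusted p was 0.14 for Wnt7a, 0.24 for Axin1, 0.20 for Tcf7l2, 0.098 for Myc and 0.16 for Ctnnb1. Over all alternatives it ranged from 1.4e-04 to 0.14 for Wnt7a. Fzd6 turned to 0.011 and Znrf3 to −0.0026 without the Prox1-Cy3 profile, and leaving out 1 profile moved them over −1.07 to 0.011 and −0.0026 to 0.52. The highest single feature of Lgr5 stood at 0.0064 and the lowest of Apc at −0.10, against the sign of their gene means. These changes follow from which profiles or features enter the fit, and without the Prox1-Cy3 profile also from a fit without the block. No paired analysis was possible because the orientations share no replicate numbers and each array already holds both arms. Signal over background was unknown, so dim features could not be set apart.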

Other observations

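Of the 10 measured genes of planar cell polarity and its small GTPases on the wider pathway list, Rhoa fell and 0 rose. Their median effect was −0.29, and 6 of the 10 were below 0 in all 4 profiles, as were 19.5% of all features tested; the group was formed after these values were seen. Vangl2, a core membrane protein of planar cell polarity, stood at −1.09, −1.11 and −0.96 on the Prox1-Cy5 arrays and −0.53 in the Prox1-Cy3 profile, with an effect of −0.81 ± 0.22 that did not pass (limma adjusted p = 0.088). The 4 R-spondins, secreted proteins that strengthen Wnt signals through the Lgr receptors, had effects between −0.43 and 0.084, and 0 of them passed. Of the 15 further genes of the destruction complex and its regulators 0 passed, and the highest effect was 1.01 for Csnk1e, a kinase that acts on Dishevelled (limma adjusted p = 0.10). Ryk, a receptor for Wnt5a among others, stood at 0.45, 0.90 and 0.93 on the Prox1-Cy5 arrays and 1.93 in the Prox1-Cy3 profile, with an effect of 1.30 ± 0.38 (limma adjusted p = 0.10). The other groups of the wider list were also formed after its values were seen.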
